A study of Mus musculus with 8 samples.

Results

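The tags described here are those that Ptbp2 CLIP placed on the 45S ribosomal RNA precursor, Rn45s, in the cortex of mouse embryos. They are all tags of the deposited list whose midpoint lay on the plus strand of chromosome 17 between 39979900 and 39985800 (mm9, counted from 1), a window of 5901 nt. The window held 12640 of the 3098854 tags, or 0.408% (exact Clopper-Pearson 95% interval 0.401 to 0.415%, counting error only). It was chosen because it held some of the tallest piles of tags in the pooled libraries, so the heights, levels and repeats below are a description and carry no test against the rest of the list. The name Rn45s came with the window; the RefSeq gene table used for names describes another assembly, GRCm38.p6, and held 0 entries under that name.

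The study crosslinked Ptbp2 to RNA with ultraviolet light in the tissue, recovered the complexes with an antibody and sequenced the bound fragments (HITS-CLIP). The 8 libraries were 4 from brain 2 and 4 from brain 1, both wild-type animals of the outbred CD1 strain at embryonic day 18.5, with no treatment named. Brain 2 libraries held 228424 to 340852 tags and brain 1 libraries 458293 to 545387. All libraries of a brain came from one animal, and p-values between the brains measure only the spread between libraries. No knockout, input RNA or other antibody was analysed here, so tag counts reflect binding, RNA abundance and recovery together and cannot be told apart.

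Ribosomal RNA is transcribed in the nucleolus by RNA polymerase I as one long precursor. External and internal spacers are cut away and degraded, leaving the RNA of the small ribosomal subunit and those of the large subunit. It is the most abundant RNA of a cell, and its fragments turn up in many preparations of crosslinked RNA. Ptbp2 is the neuronal member of the polypyrimidine tract binding proteins and is known for its control of alternative splicing of messenger RNA precursors. The boundaries of spacers and mature RNAs inside the window were not placed, so positions are given as distance from the window's start. How much of the precursor the window holds was not determined either, and the unit below means the window alone.

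The tags were bounded, on one strand, and crowded into the second part of the window. The first base covered was 39979943 and the last 39985774, a span of 5832 nt. On the plus strand 0 tags lay in the 5000 nt before the window and 0 in the 5000 nt after it, and on the minus strand of the window itself there were 0. From a distance of 3400 to under 5200 lay 12057 tags, 95.4% of the unit. The stretch before it held 433 tags (3.43%) and the stretch from 5200 on held 150 (1.19%). Of 59 bins of 100 nt, 6 held no tag.

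**Figure D1:**
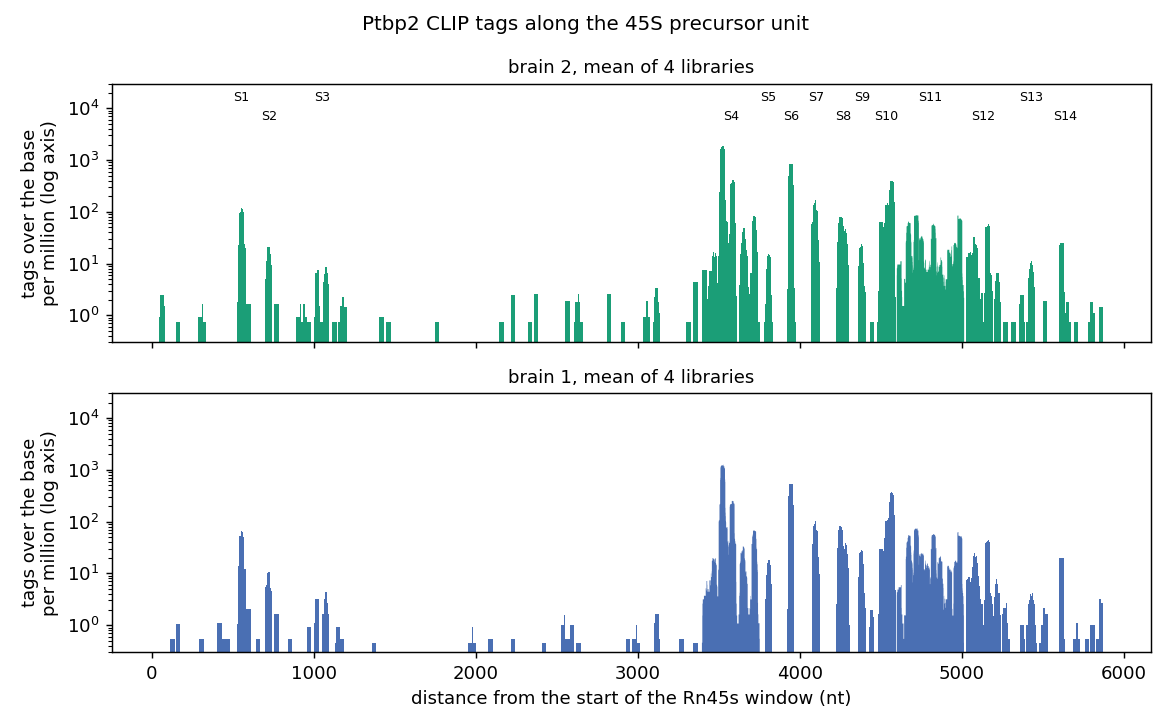
Mean coverage along the 45S unit, in tags over each base per 1000000 tags of the library (log axis), against distance from the window's start in nt, for brain 2 (above) and brain 1 (below), 4 libraries each. The names S1 to S14 mark the 14 stacks; 95.4% of all the tags lie from 3400 to under 5200, and S4 is the tallest.

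Joining tags that overlapped by 1 nt or more gave 55 clusters in the window, of which 16 were a single tag. Height is the largest number of tags over one base. A height of 10 was reached by 14 clusters, called stacks S1 to S14 in order along the unit, and these held 12507 tags (98.9%). The lowest stack kept, S3, had a height of 18, and the tallest cluster left out had a height of 8.

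S4, the tallest, ran from 39983296 to 39983653, 3396 to 3753 nt from the window's start. It held 6097 tags, 48.2% of the unit, with a height of 4545, the second tallest in the whole list. S6 ran from 39983820 to 39983874 and held 1974 tags, all of them over one base. S10, from 39984375 to 39984497, held 1664 tags with a height of 1175. The 3 ranked 2, 4 and 5 by height among 22803 clusters of height 10 or more.

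The others were lower and of differing shape. S11 was the widest, 417 nt from 39984499 to 39984915, with 1115 tags but a height of 244. S12 (39984924 to 39985141) held 310 tags over 218 nt. S7 (39983971 to 39984027) held 393 tags and S8 (39984126 to 39984212) 387. The first part of the unit had one stack of size, S1, from 39980425 to 39980481 with 264 tags. S2, S3, S5, S9, S13 and S14 held between 25 and 82 tags each. Every stack but S3, which had tags of 7, held tags of all 8 libraries.

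Within the stacks most tags fell on a few exact positions, a position being one start with one end. The unit had 898 distinct positions, and the 17 with 100 or more tags held 62.0% of its tags. In S4, 1571 tags ran from 39983409 to 39983438 and 1492 from 39983411 to 39983440, and these 2 positions made up 24.2% of the unit. Tags with their 5′ end from 39983400 to 39983412 numbered 4132, 32.7% of the unit, and a second group in S4 began at 39983468 with 622. These groupings of 5′ ends were chosen after the positions were seen.

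The other tall stacks were built in the same narrow way. In S6 the position from 39983830 to 39983859 held 1074 tags (54.4% of the stack) and that from 39983833 to 39983862 held 678. In S10 the fullest position ran from 39984453 to 39984482 with 498 tags (29.9%). S11 was more even, its fullest position, 39984874 to 39984903, holding 146 tags (13.1%). S1 (80 tags at 39980437 to 39980466), S7 (153 at 39983984 to 39984013), S8 (103 at 39984135 to 39984164) and S12 (94 at 39985046 to 39985075) had between 26.6% and 38.9% of their tags at one position. All 17 positions with 100 or more tags were 30 nt long.

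The profile recurred from library to library. Positions found in all 8 libraries numbered 66 and held 78.2% of the tags, while 466 positions were seen in 1 library only. Over 616 5′ ends in the unit, tag counts of 2 libraries had Pearson correlations of 0.972 to 0.992 in the 16 pairs from different brains and 0.978 to 0.993 in the 12 pairs from the same brain. These values are across positions, which are not independent, and rest largely on the fullest positions.

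The unit took a larger share of each brain 2 library than of any brain 1 library. It held 1249, 1487, 1606 and 1414 tags in libraries 1 to 4 of brain 2, against 1733, 1501, 1800 and 1850 in those of brain 1. As tags per 1000000 of the library (CPM) these were 4671, 4517, 4712 and 6190 in brain 2, against 3178, 3275, 3916 and 3939 in brain 1. The brains did not overlap in CPM, and library 4 of brain 2, the shallowest of all, stood above the rest. Of the 2425 stretches of the same length tested below, 4.70% had every brain 2 library above every brain 1 library in scaled CPM. Another 2.85% had every one below.

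The mean was 5023 ± 783 CPM in brain 2, against 3577 ± 407 CPM in brain 1 (SD, n = 4 libraries each). The difference of 1446 CPM had a two-sided exact permutation p of 0.0286, the smallest that 4 against 4 libraries can give, and 0.0476 adjusted over 5 such tests. Within the letter a of the titles, whose meaning the labels do not give, the difference was 1368 CPM, and within b it was 1523. Without library 4 of brain 2 it was 1056 CPM. With each position counted once per library the unit took 1030 ± 133 per 1000000 positions in brain 2, against 734 ± 71.6 in brain 1 (SD, n = 4), and the brains again did not overlap (exact permutation p = 0.0286). Every brain 2 library was shallower than every brain 1 library, and repeats made up 81.9% of the unit's tags against 11.2% of all others. A share of distinct positions therefore varies with depth, and this comparison cannot separate depth from brain. Depth and brain can likewise not be told apart in the CPM above or in the tile and stack fits below.

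**Figure D2:**
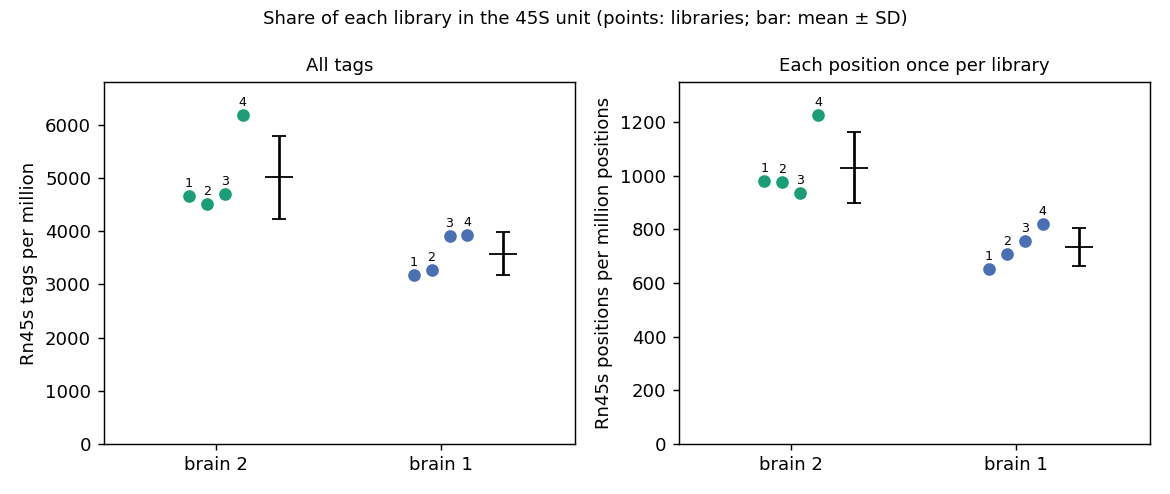
Share of each library that fell in the 45S unit, as tags per 1000000 tags (left) and as distinct positions per 1000000 positions (right). Points are libraries with their numbers, bars the mean ± SD of 4; all brain 2 libraries lie above all brain 1 libraries in both panels, library 4 of brain 2 highest at 6190 CPM.

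To set this against other stretches of the genome, all tags were counted in strand-specific tiles of 5901 nt placed so that the Rn45s window was one of them. Scaling used a trimmed mean of log ratios, and the brains were compared with limma voom. Of 2425 tiles tested, 50 passed an adjusted p of 0.05, all of them higher in brain 2 (2.06%), and the Rn45s tile was one. With total scaling 11 tiles passed, 9 of them higher. With trimmed scaling the mean of the Rn45s tile was 5283 ± 336 scaled CPM in brain 2, against 3394 ± 541 in brain 1 (SD, n = 4). This was a log2 difference of 0.65 ± 0.08 (SE, limma voom adjusted p = 3.58e-06). A larger increase was estimated for 197 of the tiles tested, and the median over all was 0.01. Scaling by total tags moved that median to -0.19 and gave 0.48 for Rn45s (limma voom adjusted p = 0.0235). With the 2 libraries of each letter summed, which leaves 2 against 2, 0 tiles passed in limma voom (319 had an unadjusted p under 0.05) and Rn45s had 0.58 (adjusted p = 0.198). An unadjusted p under 0.05 was seen in 289 tiles when libraries were kept apart. That brain 2 was higher here was known from earlier results on these tags, so it is not independent support. Depth did not overlap between the brains, so these fits cannot tell depth from brain.

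The estimated difference between the brains varied from stack to stack along the unit. In limma voom over 466 clusters of height 10 or more that passed a filter on low counts, 9 of the 14 stacks were tested. The other 5 (S2, S3, S5, S13 and S14) had too few tags. Of the 9, 2 were higher in brain 2 and 0 lower. Of all clusters tested, 1.50% passed, 1.29% higher and 0.215% lower in brain 2. Before adjustment, 4 of the 9 had a p under 0.05 in limma voom, all 4 with the higher level in brain 2, as did 91 of the 466 clusters in either direction. The median log2 difference of the 9 was 0.21, against 0.03 over all clusters. Whether single stacks differ from one another was not tested.

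S4 held 2125 or more scaled CPM in every brain 2 library and 1933 or less in every brain 1 library. Its means were 2327 ± 149 in brain 2, against 1792 ± 161 in brain 1 (SD, n = 4), a log2 difference of 0.38 ± 0.08 (SE, limma voom adjusted p = 0.00522). The call was lost when library 1 of brain 1 was left out (0.29, adjusted p = 0.0948) and with each position counted once per library (0.20, adjusted p = 0.179). S6, at 779 ± 52.2 scaled CPM in brain 2 against 564 ± 75.0 in brain 1, was higher by 0.47 ± 0.11 (adjusted p = 0.0142). It did not pass without library 1 of brain 1 (0.34, adjusted p = 0.168), without library 2 of brain 2 (0.48, adjusted p = 0.0655), or with each position counted once (0.52, adjusted p = 0.0908). With total scaling S4 had 0.54 and S6 0.64 (limma voom adjusted p = 0.0164 for both), and the Rn45s tile 0.48. The median over all clusters then moved from 0.03 to 0.16. Trimmed scaling differed between the tile and cluster fits, so the tile's 0.65 cannot be set directly beside the stacks' values. With the libraries of a letter summed the differences were 0.41 for S4 and 0.51 for S6, and neither passed (adjusted p = 0.502 for both), nor did any of the 745 clusters then tested in limma voom, of which 68 had an unadjusted p under 0.05.

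The 7 tested stacks that did not pass had log2 differences from -0.39 to 0.60. S1 had 111 ± 41.8 scaled CPM in brain 2, against 69.7 ± 10.9 in brain 1, a difference of 0.60 ± 0.22 (adjusted p = 0.132), which passed without library 1 of brain 2 (0.91, adjusted p = 0.0240). S7 had 0.49 ± 0.17 (adjusted p = 0.112). S10, the third tallest of the unit, had 569 ± 31.1 scaled CPM in brain 2, against 533 ± 77.1 in brain 1, a difference of 0.10 ± 0.11 (adjusted p = 0.662). It was 0.27 with total scaling, and 0.0086 and 0.00097 when library 1 or library 2 of brain 1 was left out, and did not pass in any of them. S11 had 0.07 ± 0.14, S12 0.21 ± 0.17, S8 -0.11 ± 0.17 and S9 -0.39 ± 0.46, and in each of these 7 stacks libraries of the brains overlapped. Of all 466 clusters, 7.08% had every brain 2 library above every brain 1 library, as S4 and S6 did, and 6.22% had every one below.

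**Figure D3:**
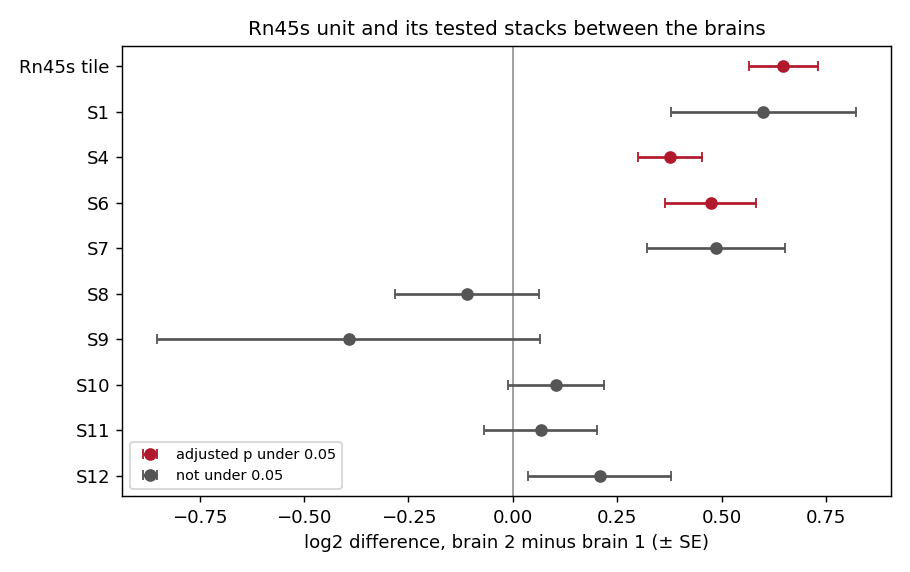
Log2 difference, brain 2 minus brain 1, of the Rn45s tile and its 9 tested stacks in the order they lie along the unit, with standard errors from limma voom. The tile, S4 and S6 had an adjusted p under 0.05; S8 and S9 lie below 0 and S10 to S12 above it by 0.21 or less. The tile and the stacks come from separate fits with separate scaling.

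The share of tags in the earlier stacks restates the stack values above, and its mean was higher in brain 2. Tags before a distance of 4200, which takes in S1 to S7, made up 73.6 ± 1.15% of the unit in brain 2, against 68.6 ± 1.13% in brain 1 (SD, n = 4). The range was 72.1 to 74.8% in brain 2 and 67.2 to 69.95% in brain 1. With positions counted once per library the shares were 52.2 ± 1.74% and 46.9 ± 1.24%. This boundary was set after the stacks had been compared, other boundaries were not tried, and the difference was not tested. It is therefore not a result apart from theirs. The share in S4 alone, 49.5 ± 1.67% in brain 2 and 47.3 ± 0.817% in brain 1, had an exact permutation p of 0.0857 (0.107 adjusted over 5 tests) with overlapping libraries.

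Repeated positions dominated the unit. Counting as repeats all tags after the first at one start and end within a library, 81.9% of the unit's tags were repeats, against 11.2% of all other tags. Tall clusters in general were repeated, with a median of 66.9% (up to 94.7%) in the other 212 clusters of height 100 or more and 73.3% in the 8 stacks of the unit that tall. The unit supplied 2.91% of all repeats in the list from 0.408% of its tags. By library the share in the unit was 80.7, 80.4, 82.4 and 83.9% in brain 2, against 81.8, 80.5, 83.2 and 81.7% in brain 1. The means, 81.8 ± 1.63% and 81.8 ± 1.07% (SD, n = 4), differed by 0.0574 percentage points (exact permutation p = 0.971). S6 was the most repeated stack, at 95.1%, and S3, S5 and S13 the least, at 12 to 19.2%.

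The fullest position of every library in the whole list lay in this unit. It held 168, 189, 201 and 205 tags in libraries 1 to 4 of brain 2, against 209, 194, 204 and 208 in those of brain 1. In 7 libraries it was the position from 39983409 to 39983438 and in library 1 of brain 1 that from 39983411 to 39983440. Depth ranged 2.39-fold over the same libraries. Per the labels each read opened with 4 degenerate bases, which can spell 256 codes; whether repeats were collapsed by code is not stated there, and the part of such a limit was not tested. Positions with over 64 tags in a library occurred 75 times in the list, 42 of them in the unit.

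The tag counts that follow are not scaled for depth, and every brain 2 library was shallower than every brain 1 library. Of the fullest positions of the other 7 stacks with 100 or more tags, that of S10 did not overlap between the brains in these counts. Those of S1, S6, S7, S8, S11 and S12 did. The share of separated positions over the whole list is not given here. The position of S6 from 39983830 to 39983859 held 125, 138, 138 and 116 tags in brain 2, against 129, 119, 156 and 153 in brain 1. The fullest position of S10 held 47, 41, 63 and 35 in brain 2, against 84, 75, 77 and 76 in the deeper brain 1 libraries. Scaled by library size, only a wider set of 922 tags that includes this position was compared. Tags with their 5′ end from 39984453 to 39984458 held 325 ± 43.5 CPM in brain 2, against 283 ± 15.7 in brain 1 (SD, n = 4). The fullest position of S7 held 17, 16, 23 and 19 tags in brain 2, against 24, 20, 16 and 18 in brain 1. Over the whole list brain 2 had 0.603 times the tags of brain 1.

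**Figure D4:**
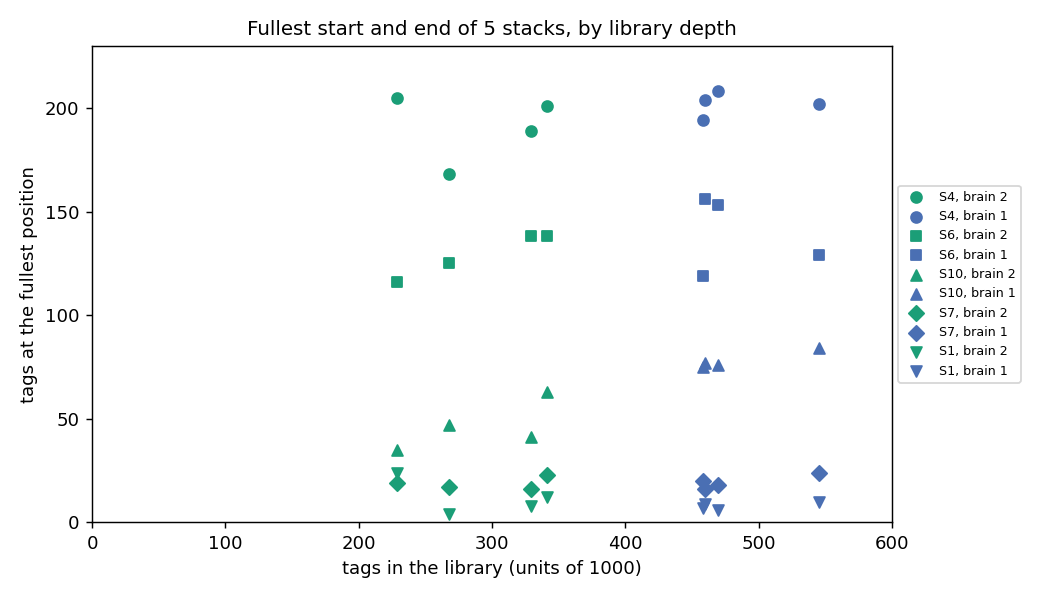
Tags at the fullest position of stacks S1, S4, S6, S7 and S10 in each library (vertical axis, tags) against library depth (horizontal axis, in units of 1000 tags). The S4 position stays between 168 and 208 tags over a 2.39-fold range of depth, while the S10 position holds 35 to 63 tags in brain 2 libraries and 75 to 84 in the deeper brain 1 libraries.

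The positions were also grouped by pooled fullness, after they had been seen, and differences between these classes were not tested. The 3 positions with 1000 or more tags held 1756 ± 355 CPM in brain 2, against 1112 ± 98.4 in brain 1 (SD, n = 4), a ratio of means of 1.58. The 14 with 100 to under 1000 tags held 1445 ± 194 and 1061 ± 139 CPM, a ratio of 1.36. The 107 with 10 to 99 tags had a ratio of 1.32, and the 774 with 1 to 9 tags held 621 ± 35.9 CPM in brain 2, against 496 ± 59.6 in brain 1, a ratio of 1.25. In each of these 4 classes every brain 2 library lay above every brain 1 library, as in the unit they make up. They are therefore not separate results. Of the 2425 tiles tested, 4.70% were separated in that direction in scaled CPM, and no such share was taken over position classes. Leaving out the 2 fullest positions left a difference of 964 CPM between the brains (exact permutation p = 0.0286).

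Tag length played no part in choosing the unit. Tags in the list were 27 to 30 nt long, and 89.9% of those in the unit had the full 30 nt, against 42.9% of all other tags. Only 4.49% of the unit's tags were 27 nt long, against 28.6% elsewhere. By library, 89.8, 88.8, 89.9 and 92.0% of the unit's tags were full length in brain 2, and 89.0, 88.7, 89.3 and 91.9% in brain 1. The rest of the same libraries had 39.6, 40.8, 42.3 and 43.9% in brain 2, and 43.8, 42.1, 44.3 and 44.5% in brain 1.

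The unit exceeded the rest by 47.3 percentage points on average, in 8 of 8 libraries (two-sided exact sign-flip permutation p = 0.00781, the smallest that 8 libraries allow, 0.0391 adjusted over 5 tests). The 8 libraries came from 2 animals and are not independent, so the p-values of this paragraph cover libraries and not animals. With each position counted once per library the excess was 27.3 points (exact permutation p = 0.00781). Without S4 it was 47.5 points, so it did not rest on the tallest stack. Against tags of the other 212 clusters of height 100 or more it was 34.5 points (exact permutation p = 0.00781). Among those clusters the share of full-length tags ranged from 0 to 98.4% with a median of 56.9%, while in the 8 stacks of the unit that tall it ranged from 82.7 to 98.1% with a median of 89.1%. The lower stacks of the unit ranged from 57.7% in S5 and 63.4% in S9 to 91.2% in S14 and 97.7% in S2.

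**Figure D5:**
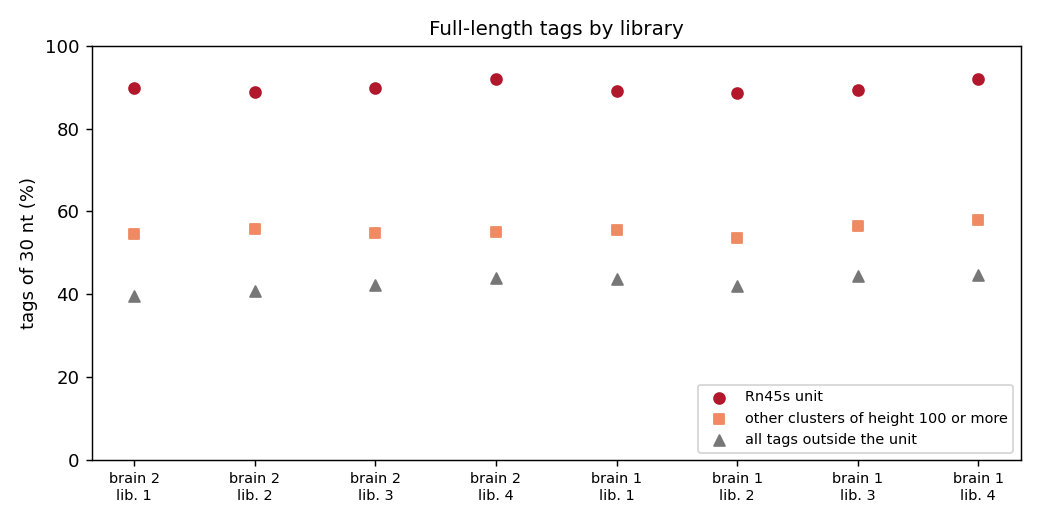
Percent of tags with the full length of 30 nt in each library, for the 45S unit (circles), the other clusters of height 100 or more (squares) and all tags outside the unit (triangles). The unit lies between 88.7 and 92.0% in the 8 libraries and the tags outside it between 39.6 and 44.5%.

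The excess in full-length tags was larger in brain 2, at 48.4 ± 1.14 points, than in brain 1, at 46.1 ± 1.12 (SD, n = 4, exact permutation p = 0.0286, 0.0476 adjusted over 5 tests). The unit itself had 90.1 ± 1.36% full-length tags in brain 2 and 89.8 ± 1.45% in brain 1. The tags outside it had 41.7 ± 1.86% in brain 2 and 43.7 ± 1.11% in brain 1. The ranges of the difference were 47.6 to 50.1 points in brain 2 and 44.998 to 47.3 in brain 1.

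Among 525289 tiles of the same length with any tag, the Rn45s tile was the fullest, with 1.70 times the tags of the next. That tile lay on chromosome 7 between 118215358 and 118221258 (minus strand). It held 7430 tags, of which 78.5% were full length and 91.2% repeats. The third, on chromosome 19 between 5795407 and 5801307 (minus), held 2604 tags (53.3% full length), and the fourth, on chromosome 16 between 18529765 and 18535665 (minus), held 2094 (32.9% full length). A tall pile of repeats was therefore not always one of full-length tags. Those on chromosomes 7, 19 and 16 had 3025 ± 666, 782 ± 194 and 801 ± 156 CPM in brain 2, against 2069 ± 84.0, 883 ± 78.6 and 614 ± 26.1 in brain 1 (SD, n = 4), so that the chromosome 19 mean was the lower one in brain 2.

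The 3 tested tiles whose scaled log2 level over the 8 libraries was most like that of Rn45s lay on other chromosomes. The first was on chromosome 14 between 28337227 and 28343127 (plus strand, 67 tags, Pearson r = 0.987). The next lay on chromosome 16 between 57387850 and 57393750 (minus, 454 tags, r = 0.979) and on chromosome 12 between 57405553 and 57411453 (minus, 601 tags, r = 0.974). They are the highest of 2424 values, and the 8 points of each share the libraries' scaling and fall into the same pair of brains. All 3 were higher in brain 2, with log2 differences of 1.69, 0.91 and 0.64 (limma voom adjusted p = 0.0457, 0.000154 and 0.00358). The chromosome 14 tile had 38.2 ± 7.22 scaled CPM in brain 2, against 13.0 ± 5.77 in brain 1 (SD, n = 4). The count filter needed 4 libraries, so a tile could enter through brain 2 alone. The likeness is therefore no separate support.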

How the data were processed

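RNA crosslinked to Ptbp2 was sequenced in 8 libraries of 2 embryonic cortices. The authors deposited one list of mapped tags giving position, strand and a name with the library code for each; its score column, deposited with the value 0 in every row, was not used. Bowtie and the builds mm9 and mm8 are listed, per the submitters' processing notes. The last tag of chromosome 1 ended at 197194446, beyond that chromosome in mm8, and positions are therefore mm9. What was done with repeats, and with reads that map to several copies of the ribosomal unit, is not stated.

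The 8 codes matched the sample titles. Tags were counted by script (Python 3.11.15, pandas 2.3.3, scipy 1.17.1). Clusters and tiles were tested with limma 3.58.1 (voom, R 4.3.3) on tag counts made from the deposited list, since it is no count table; features needed the CPM of 10 tags in a library of median depth in 4 libraries and 15 tags in all. Factors trimmed 30% of ratios and 5% of levels at each end. The Benjamini-Hochberg adjusted threshold was 0.05. Data were also simulated with an assumed dispersion that was not estimated from these libraries. For 2425 tiles the fit recovered 60.0% of 2-fold increases and 22.0% of decreases to 0.5, with 3 false calls among 2225 unchanged tiles. In that simulation it had less power for decreases, and power in the real libraries was not estimated. For 466 simulated clusters the fit recovered 78.0% and 56.0%, with 3 false calls among 266 unchanged clusters. The window, stacks and tests were chosen with earlier results of these data known. Named were all stacks of height 10 or more, the fullest position of each with 100 or more tags, the 3 fullest other tiles and the 3 most alike.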

Additional observations from a re-analysis of the deposited data

Results flagged for a closer look

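Library 4 of brain 2 lay far from the other 3 of its brain in the share of tags from the 45S unit, at 6190 CPM against 4517 to 4712, and in stack S6, at 1003 CPM against 757 to 789. Of 36 sets of 4 libraries examined, these 2 stood out, where chance gives about 1 in 20. That is about as many as chance alone would give, and the 2 are not separate, since S6 is part of the unit. That library was the shallowest, with 228424 tags, and had the largest share of repeats outside the unit, 18.2%, against 7.75 to 12.5% in the others; the part of these in the result was not tested. Without it the difference between the brains was 1056 CPM.

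The excess of full-length tags in the unit over the rest of the library was larger by 2.39 percentage points in brain 2 than in brain 1. The exact permutation p was 0.0286, the smallest that 4 against 4 libraries can give. The unit itself had 90.1% on average in brain 2 and 89.8% in brain 1. Tags outside it had 41.7% and 43.7%, so the rest of the libraries differed more than the unit.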

How the results depend on the processing

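The share of the unit (difference 1446 CPM) stayed higher in brain 2 in all alternatives run. Leaving out a library gave 1056 to 1614 CPM, each with an exact permutation p of 0.0571, the smallest that 3 against 4 libraries allow. The replicate number as a block, by sign-flip over 4 pairs, gave the same 1446 CPM with an exact permutation p of 0.125, again the smallest possible. The labels do not say whether same-numbered libraries of the brains share more than a number. Their deviations from the brain means correlated between -0.06 and 0.01, and those of differently numbered libraries between -0.05 and 0.06. Values this small cannot show that no pairing exists. In the fits with that block the Rn45s tile had a log2 difference of 0.65 and 1 stack, S4, passed; S6 had 0.47 (limma voom adjusted p = 0.0575). The tile passed without each library in turn (0.53 to 0.69). With letters summed it had 0.58 and did not pass. Without a count filter the fit gave 0.61 with a standard error of 0.0012, under the counting error of 0.0258, so no p is given; with tiles of 20 or more tags it gave 0.51. Passing stacks, 2 as reported, numbered 0 to 3 without single libraries, 0 with positions counted once per library or letters summed, and 2 with total scaling. Differences in repeats ran from -0.62 to 0.55 points and in the share in S4 from 1.50 to 2.72 points without single libraries. Full-length excess ran from 46.8 to 47.6 points. Stacks numbered 14, against 25 at a height of 5, 23 with an overlap of 10 nt and 14 to 15 without single libraries. S8 (-0.11) turned to 0.0475 with total scaling and 0.0489 with positions once, and ran from -0.24 to 0.057 without single libraries. S11 (0.07) turned to -0.0352 with positions once and ran from -0.068 to 0.19, and S12 (0.21) turned to -0.0612 with positions once; none of these passed either way, and the cause was not tested. Tiles passing numbered 11 with total scaling, 23 with positions once, 17 of those with 20 or more tags, 58 with the block and 20 to 42 without single libraries; passing clusters numbered 15 with total scaling, 4 with positions once, 0 with letters summed (limma voom, 68 at an unadjusted p under 0.05) and 1 to 10 without single libraries.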
